A study of Saccharomyces cerevisiae with 24 samples.

Results

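The 10 transcripts described here are encoded by the mitochondrial genome of Saccharomyces cerevisiae and were measured by 1 probe each among the 6256 probes of a single-colour yeast expression array. They were taken by systematic name, and these are COX1 (Q0045), AI1 (Q0050), AI2 (Q0055), ATP8 (Q0080), COB (Q0105), BI2 (Q0110), OLI1 (Q0130), VAR1 (Q0140), COX2 (Q0250) and COX3 (Q0275). The choice was made by name, but with earlier results of these data known. The array carried 23 probes with such a Q0 name, so 13 further ones stand outside the set. Of these 13, 9 were too dim to be tested, whereas all 10 in the set were tested.

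RNA came from 3 haploid MATa strains of the W303 background, each grown in 2 media with 4 biological replicates, which gave 24 arrays in 6 groups. In SEF1-VP16 the chromosomal gene encodes Sef1, a zinc cluster transcription factor, fused to the viral VP16 activation domain and followed by an FRT scar. In sef1 the gene is replaced by the NatMX4 marker, and WT carries neither change. All 3 strains share mutant alleles of HIS3, TRP1, URA3, ADE2, LEU2 and CAN1, and the media were supplemented with adenine and tryptophan. YPGly holds glycerol, which yeast can use only by respiration, and YPD holds glucose, which yeast mostly ferments. Overnight cultures in YPD served as inoculum at an OD600 of 0.2 per ml, and cells were collected after 5.5 h in YPGly or YPD at 30 °C. By the methods the YPD cultures were denser at collection than the YPGly cultures. The medium and the growth since inoculation therefore cannot be told apart. The comparisons asked whether the carbon source, the loss of Sef1 or the activating fusion altered these transcripts.

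The mitochondrial genome of yeast encodes a small set of proteins, nearly all of them core subunits of the respiratory chain and of the ATP synthase, and every one is assembled with subunits encoded in the nucleus. A single-subunit polymerase copies the genome into long precursors, which are then cut, spliced and held stable by nuclear-encoded factors specific to 1 or a few messages. COX1 and COB are split by introns, and several of these introns hold reading frames that run on from the exon before them. The products of those frames, called maturases, help their own intron to be spliced. A reading frame of this kind and the mature message of its host gene therefore come from the same precursor.

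Some limits of the measurement apply to every value below. The cDNA was primed with an anchored oligo-dT primer, whereas yeast mitochondrial messages lack the stable poly(A) tails of nuclear ones, so the efficiency with which each was copied is not known. Where in its reading frame each probe lies is not known here either. In the annotation, AI1 and AI2 begin at the start of COX1, and BI2 begins at the start of COB. A probe in a shared exon would therefore also detect the host message. In RNA from whole cultures, fewer mitochondrial genomes per cell and less RNA per genome cannot be told apart.

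Levels are given as log2 intensity minus the 75th percentile of log2 intensities on the same array, so that 0 marks a probe at that percentile and a step of 1 is a 2-fold difference. They can be compared between arrays for 1 gene, but not between genes. All 10 probes were well above background on 24 of 24 arrays, and none had a saturated spot. The 75th percentile itself ranged 3.04-fold over the arrays, between 5319.6 and 16181.8 intensity units. SEF1 was well above background on 4 of 4 arrays of SEF1-VP16 and of WT in each medium. It was so on 0 of 4 sef1 arrays in each medium, as the sef1 label states. Detection of SEF1 does not tell SEF1-VP16 from WT. The SEF1 level in SEF1-VP16 minus WT was -0.76 in YPD and -0.58 in YPGly. The arrays were on 3 slides. One held the YPD arrays of sef1 and WT, another the YPGly arrays of SEF1-VP16 and sef1, and the last the YPGly arrays of WT with the YPD arrays of SEF1-VP16. Every comparison between media therefore crossed slides. A difference was called when its limma p-value, adjusted by Benjamini-Hochberg over the 5641 probes with sufficient signal, was below 0.05 and its size was at least 1.5-fold.

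Most mitochondrial transcripts were several-fold higher in YPGly than in YPD in every strain. In SEF1-VP16, 9 of the 10 were called higher, where 19.6% of all tested probes were. In sef1 it was 8 of 10, against 19.4% of all probes, and in WT it was 8 of 10, against 21.1%. None was called lower. BI2 reached the intensity minimum for testing, a mean of 200 units in some group, only through YPGly in sef1 and WT, where it was high. Without it the counts were 8 of 9, 7 of 9 and 7 of 9. The median difference over the 10 transcripts was 1.45 in SEF1-VP16, 1.53 in sef1 and 1.69 in WT on the log2 scale, where the medians over all tested probes were -0.05, -0.02 and 0.01. In each strain 8 of the 10, or without BI2 8, 7 and 7 of 9 in SEF1-VP16, sef1 and WT, had all 4 YPGly arrays above all 4 YPD arrays, which held for 35.1% of all tested probes in SEF1-VP16, 36.6% in sef1 and 34.2% in WT. For 7 of the 10, namely COX1, COX2, COX3, COB, ATP8, AI1 and AI2, the 12 YPGly arrays of the 3 strains all lay above the 12 YPD arrays, as did those of 23.4% of all tested probes.

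**Figure D1:**
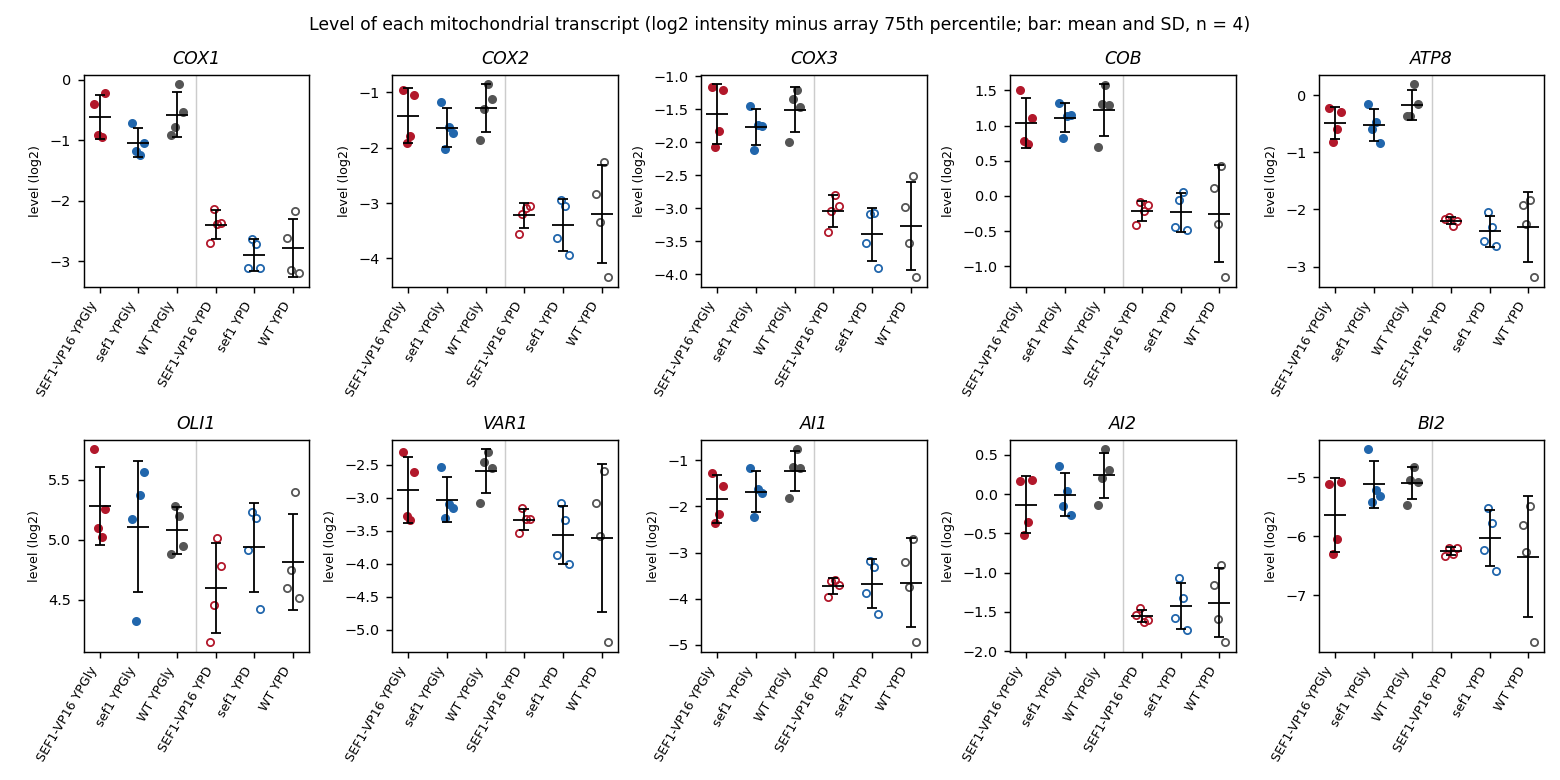
Level of each of the 10 transcripts (vertical axes, log2 intensity minus the 75th percentile of the array, with a separate scale for each gene) in the 6 groups, filled circles for YPGly and open circles for YPD. Each circle is 1 array, and the bar gives the mean and SD of 4 arrays. In 7 panels the 12 YPGly arrays lie above the 12 YPD arrays, whereas in OLI1, VAR1 and BI2 the media overlap.

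COX1, COX2 and COX3 encode the 3 catalytic core subunits of cytochrome c oxidase, the last complex of the respiratory chain. In SEF1-VP16 the COX1 level was -0.40, -0.92, -0.94 and -0.22 in YPGly, against -2.70, -2.13, -2.38 and -2.36 in YPD. In sef1 it was -0.71, -1.18, -1.24 and -1.04 in YPGly, against -3.12, -2.63, -2.71 and -3.11 in YPD. In WT it was -0.92, -0.78, -0.07 and -0.53 in YPGly, against -2.62, -3.14, -2.17 and -3.19 in YPD. The lowest of the 12 YPGly arrays thus stood well clear of the highest YPD array. The COX1 difference was 1.77 ± 0.17 in SEF1-VP16, 1.85 ± 0.14 in sef1 and 2.21 ± 0.24 in WT (log2, SE, n = 4 arrays per group), or 3.41-fold, 3.61-fold and 4.61-fold. The limma adjusted p-values were 4.18e-06, 3.11e-07 and 1.38e-05.

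COX2 differed by 1.80 ± 0.22 in SEF1-VP16, 1.75 ± 0.23 in sef1 and 1.91 ± 0.38 in WT. COX3 differed by 1.47 ± 0.20 in SEF1-VP16, 1.63 ± 0.19 in sef1 and 1.76 ± 0.29 in WT. Of these 9 estimates the smallest was that of COX3 in SEF1-VP16, which corresponds to 2.77-fold. COB encodes cytochrome b, the only subunit of complex III made in mitochondria, and it was higher by 1.25 ± 0.16 in SEF1-VP16, 1.34 ± 0.14 in sef1 and 1.47 ± 0.31 in WT.

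The probes of the 2 ATP synthase subunits gave unlike values, and those of OLI1 carry a limit described below. ATP8 encodes a small membrane subunit of the enzyme. Its level ranged from -0.82 to -0.22 in YPGly and from -2.28 to -2.13 in YPD in SEF1-VP16, and the difference was 1.71 ± 0.12. In sef1 it ranged from -0.83 to -0.16 in YPGly and from -2.64 to -2.04 in YPD, a difference of 1.87 ± 0.15. In WT it ranged from -0.37 to 0.19 in YPGly and from -3.18 to -1.84 in YPD, a difference of 2.13 ± 0.26. ATP8 passed in each strain, with adjusted p-values of 2.69e-07, 6.19e-07 and 3.52e-05.

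OLI1 encodes the subunit that forms the rotating ring of the ATP synthase. In SEF1-VP16 its level was 5.75, 5.10, 5.02 and 5.26 in YPGly, against 4.14, 4.46, 5.01 and 4.78 in YPD. In sef1 it was 5.17, 4.33, 5.37 and 5.57 in YPGly, against 4.92, 5.23, 5.18 and 4.42 in YPD. In WT it was 4.88, 5.28, 5.20 and 4.95 in YPGly, against 4.60, 4.75, 5.39 and 4.51 in YPD. The media overlapped in sef1 and WT, and in SEF1-VP16 the lowest YPGly array lay only just above the highest YPD array. The difference was called in SEF1-VP16 (0.68 ± 0.20, adjusted p = 0.0089), but not in sef1 (0.17 ± 0.25, adjusted p = 0.543) or WT (0.26 ± 0.18, adjusted p = 0.208). The SEF1-VP16 call was lost without replicate 1 in YPGly (0.53) or without replicate 1 in YPD (0.53), each then under 1.5-fold.

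The OLI1 values need care for a measured reason. Its unscaled intensity lay between 283321 and 392310 on the 24 arrays, a 1.38-fold range, while the 75th percentile by which it was scaled ranged 3.04-fold. The intensity reached from 72.9% to 100% of the brightest probe on the same array, and on 24 of 24 arrays it came from the low-gain scan of the scanner. Its level moved against the array brightness within groups, with a Pearson correlation of -0.89 over the 24 arrays after centring each group. With array brightness as a covariate the OLI1 difference was 0.12 in SEF1-VP16, -0.0057 in sef1 and -0.088 in WT, and none was called. How much of the OLI1 signal still responds to its RNA at this brightness was not tested.

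VAR1 encodes the 1 protein of the small mitochondrial ribosomal subunit that is made in mitochondria. In SEF1-VP16 its level was -2.31, -3.27, -3.33 and -2.62 in YPGly, against -3.54, -3.16, -3.32 and -3.32 in YPD. In sef1 it was -2.53, -3.31, -3.10 and -3.16 in YPGly, against -3.87, -3.07, -3.34 and -4.00 in YPD. In WT it was -3.08, -2.46, -2.31 and -2.55 in YPGly, against -3.08, -3.58, -2.60 and -5.20 in YPD. The media overlapped in each strain, and VAR1 was called in none. Its difference was 0.45 ± 0.21 in SEF1-VP16 (adjusted p = 0.0686), 0.54 ± 0.21 in sef1 (adjusted p = 0.0368, under 1.5-fold) and 1.01 ± 0.45 in WT (adjusted p = 0.067). In WT the 95% interval ran from 0.0036 to 2.02 and overlapped that of every other transcript. In sef1 it ran from 0.068 to 1.02 and lay below those of COX1, COX2, COX3, COB, ATP8, AI1 and AI2. The lowest of those began at 1.04, in COB. In SEF1-VP16 it ran from -0.013 to 0.91 and overlapped those of COB, OLI1 and BI2 only. These transcripts were read on the same arrays and moved together, with a Pearson correlation within groups of 0.96 for VAR1 and COX2. Overlap of the intervals therefore does not show whether VAR1 differed from the others. VAR1 was not tested against the other transcripts. Without the YPD replicate 4, the lowest array, the WT difference was 0.49 and not called, close to that of the other strains. The call appeared in WT without the YPD replicate 3 (1.35), in SEF1-VP16 without the YPGly replicate 3 (0.60) and in sef1 without either of YPGly replicates 2 and 4 or either of YPD replicates 2 and 3 (0.59 to 0.71).

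AI1 and AI2 are reading frames of group II introns of COX1, whose products act as maturases and as reverse transcriptases. AI1 differed by 1.89 ± 0.21 in SEF1-VP16, 2.00 ± 0.26 in sef1 and 2.44 ± 0.41 in WT, and its difference was called in each. AI2 differed by 1.42 ± 0.15, 1.42 ± 0.16 and 1.62 ± 0.21 in the same strains, and was called in each as well. BI2, a maturase frame in an intron of COB, had the dimmest probe of the set, with 64.8 to 356 intensity units. Its mean intensity was 187 in SEF1-VP16, 288 in sef1 and 293 in WT in YPGly, and 188, 169 and 171 in YPD. Its level in SEF1-VP16 was -5.11, -6.30, -6.05 and -5.09 in YPGly, against -6.33, -6.20, -6.30 and -6.19 in YPD. The YPGly replicates 2 and 3 lay close to the YPD values, and replicate 2 lay among them. The BI2 difference was 0.62 ± 0.25 there (adjusted p = 0.041), 0.91 ± 0.24 in sef1 (adjusted p = 0.0046) and 1.24 ± 0.41 in WT (adjusted p = 0.0189). The SEF1-VP16 call was lost without YPGly replicate 1 (0.44) or 4 (0.43) and without any of the 4 YPD replicates (0.59 to 0.64), and the WT call was lost without the YPGly replicate 3 (1.15). Without the YPD replicate 4 the WT difference was 0.76, still called. With no filter on intensity BI2 was called in sef1 and WT but not in SEF1-VP16.

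**Figure D2:**
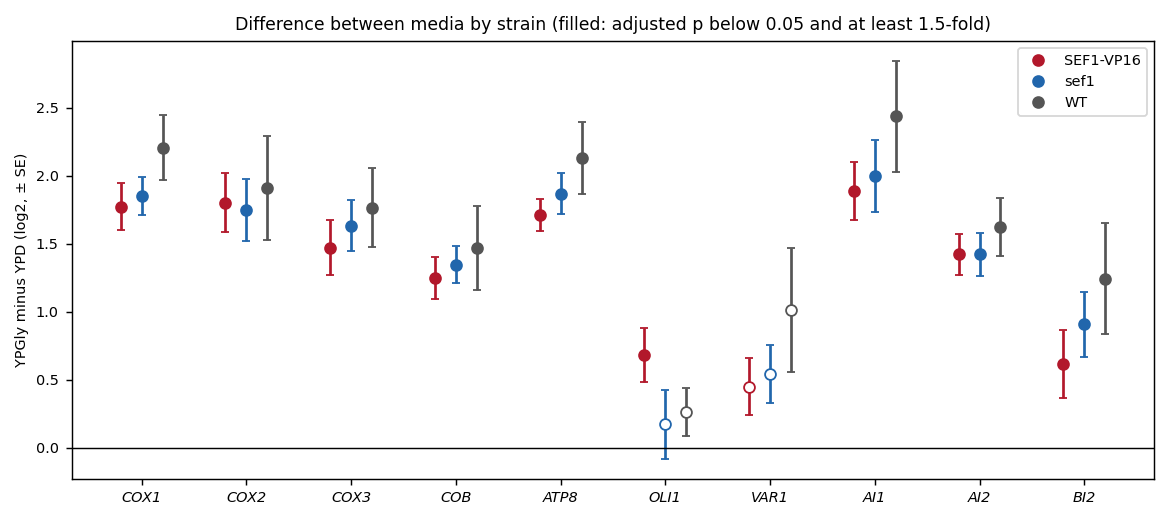
Difference between YPGly and YPD (vertical axis, log2, with its SE) for each transcript in SEF1-VP16, sef1 and WT, from limma fits of 8 arrays each. Filled circles are called (adjusted p below 0.05 and at least 1.5-fold) and open circles are not. Every value is above 0. OLI1 and VAR1 lie lowest in sef1 and WT, with 0.17 to 1.01, and VAR1 and BI2 in SEF1-VP16, with 0.45 and 0.62.

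These differences crossed slides, and the array brightness moved with the medium. The 75th percentile averaged 9180 in YPGly and 14365 in YPD in SEF1-VP16, 10055 and 11223 in sef1, and 9949 and 12682 in WT. Adding the slide to the model, on the assumption that strain and medium effects add, gave 1 common difference between media that rests on comparisons within slides, and 7 of the 10 transcripts were called in it. COX1 stood at 2.12 there, and BI2, OLI1 and VAR1 were the ones not called (0.95, 0.77 and 0.92). With array brightness as a covariate, 7, 8 and 7 of the 10 transcripts were called in SEF1-VP16, sef1 and WT. COX1 was then 1.54, 1.79 and 1.92 and was called in each. Others moved further in SEF1-VP16, where COB was 0.84, COX3 was 1.03, both still called, and BI2 was 0.17 and not called. In WT BI2 was not called either (0.74).

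Of the 13 other probes with a Q0 name, 4 had sufficient signal for testing, and 3 of these were called higher in YPGly in every strain. AI5_ALPHA, another reading frame in an intron of COX1, differed by 1.38, 0.99 and 1.19 in SEF1-VP16, sef1 and WT. AI5_BETA differed by 1.23, 1.54 and 2.16, and the uncharacterised Q0297 by 1.67, 1.06 and 1.16. Q0017 differed by 0.30, 0.19 and -0.01 and was called in no strain. Of the remaining 9, ATP6, which shares its message with ATP8, gave 15.3 intensity units at most and was well above background on both spots on 0 of 24 arrays. Why its probe stayed dim while that of ATP8 did not was not tested.

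The nuclear partners of these proteins were higher in YPGly as well. Of all tested probes, 19.6% in SEF1-VP16, 19.4% in sef1 and 21.1% in WT were called higher. All 9 nuclear complex III subunits on the list used were called higher in each strain, with medians of 1.34 in SEF1-VP16, 1.02 in sef1 and 0.91 in WT. All 13 nuclear ATP synthase subunits were called higher, with medians of 1.27, 1.05 and 1.04. Of 9 nuclear complex IV subunits, 8 were called higher. COX12 rose by 2.10, 1.74 and 1.87, and COX7 by 2.08, 1.92 and 1.87. The exception was COX5B, the isoform of subunit 5 known from cells short of oxygen, which was lower in YPGly, with differences of -3.92 in SEF1-VP16, -3.78 in sef1 and -3.90 in WT, while the other isoform COX5A rose by 2.09, 1.71 and 1.73. Each of these lists was chosen with earlier results of these data known.

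Genes that make and handle mitochondrial RNA moved in both directions, and their counts are to be read against 19.6%, 19.4% and 21.1% of all tested probes called higher and 21.7%, 19.4% and 18.1% called lower in SEF1-VP16, sef1 and WT. The 2 genes of the mitochondrial RNA polymerase, its catalytic subunit and its specificity factor, were called in no strain, with medians of 0.10, 0.10 and -0.17 in SEF1-VP16, sef1 and WT. Of 9 intron splicing factors, 3 were called higher in each strain, while 2 were called lower in SEF1-VP16 and 1 each in sef1 and WT. MNE1, needed to splice an intron of COX1, rose by 1.17, 1.23 and 1.49. MSS116, an RNA helicase that aids the splicing of mitochondrial introns, was lower, with differences of -1.12, -0.59 and -1.01. Of 21 message-specific translational activators and stability factors, 3 rose in SEF1-VP16, 3 in sef1 and 1 in WT, where CBP3 was lower (-0.64). NCA3, which takes part in the expression of the ATP8 and ATP6 message, rose by 4.82 in SEF1-VP16, 5.45 in sef1 and 4.75 in WT. In YPGly NCA3 was also called between strains by limma. It differed by 0.63 in sef1 minus WT (adjusted p = 0.0115) and by -0.74 in SEF1-VP16 minus sef1 (adjusted p = 0.00057). In the degradation complex of 2 genes, the helicase gene SUV3 was lower in SEF1-VP16 (-0.68), and neither gene was called in the other strains. Of 30 nuclear genes of the small mitochondrial ribosomal subunit, 2, 2 and 1 rose and 1, 0 and 3 fell in SEF1-VP16, sef1 and WT.

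Neither the loss of Sef1 nor the activating fusion gave a called difference in any of the 10 transcripts. For SEF1-VP16 minus sef1, 0 of 10 were called in YPGly, where 3.08% of all tested probes were, and 0 of 10 in YPD, where 3.14% were. For SEF1-VP16 minus WT, 0 of 10 were called in YPGly (1.1% of all probes) and 0 of 10 in YPD (9.15%). For sef1 minus WT, 0 of 10 were called in YPGly (0.798%) and 0 of 10 in YPD (0.674%). These counts come from limma, and the methods' unpaired test with Benjamini-Hochberg adjustment likewise gave 0 in each of the 6. At an unadjusted p below 0.05 limma gave 1 and 1 for SEF1-VP16 minus sef1 in YPGly and YPD, 1 and 0 for SEF1-VP16 minus WT, and 3 and 0 for sef1 minus WT.

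COX1 came closest. In YPD it was 0.50 ± 0.14 higher in SEF1-VP16 than in sef1 (1.42-fold, adjusted p = 0.0124), which passed the test but stayed under 1.5-fold. Its 4 values in SEF1-VP16 lay between -2.70 and -2.13, against -3.12 and -2.63 at the ends of the sef1 group, and the groups overlapped. It was called without SEF1-VP16 replicate 1 (0.60) or without sef1 replicate 2 (0.59). In YPGly the same difference, here within 1 slide, was 0.42 ± 0.17 (adjusted p = 0.105). Against WT, COX1 in SEF1-VP16 was 0.39 ± 0.21 higher in YPD (adjusted p = 0.164), called without WT replicate 3 (0.59), and in YPGly the difference was -0.05 ± 0.21 (adjusted p = 0.938). In sef1 minus WT it was -0.47 ± 0.18 in YPGly (adjusted p = 0.164) and, within 1 slide, -0.11 ± 0.22 in YPD (adjusted p = 0.777).

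No other difference between strains passed the test. The 95% intervals of some excluded 0 before adjustment, all of them in YPGly and across slides in comparisons with WT. AI1 was -0.62 ± 0.27 in SEF1-VP16 minus WT (adjusted p = 0.294). In sef1 minus WT, VAR1 was -0.43 ± 0.19 (adjusted p = 0.227) and ATP8 was -0.34 ± 0.15 (adjusted p = 0.234). In both comparisons with WT in YPGly 9 of the 10 differences were below 0. Over the 10 transcripts the YPGly differences ran from -0.52 in BI2 to 0.42 in COX1 for SEF1-VP16 minus sef1, from -0.62 in AI1 to 0.20 in OLI1 for SEF1-VP16 minus WT, and from -0.47 in COX1 to 0.03 in OLI1 for sef1 minus WT. In YPD they ran from -0.34 in OLI1 to 0.50 in COX1, from -0.22 in OLI1 to 0.39 in COX1, and from -0.20 in COX2 to 0.32 in BI2. The 95% intervals were wide, with a median width between 0.79 and 1.36 over the 6 comparisons, where the median over all tested probes lay between 0.25 and 0.38. For sef1 minus WT in YPD the intervals of the 10 transcripts together reached from -1.09 to 1.32. Differences of 1.5-fold in either direction were therefore within the intervals for many of these transcripts and not shown to be absent.

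**Figure D3:**
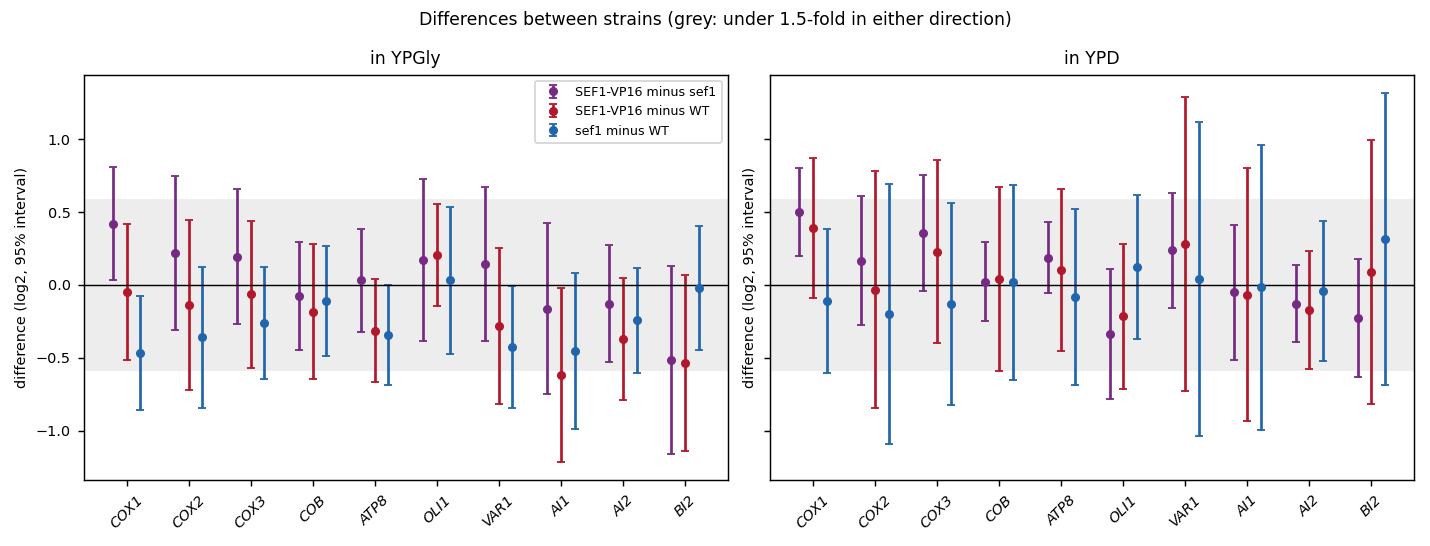
Differences between strains (vertical axes, log2, with 95% interval from limma fits of 8 arrays) for each transcript in YPGly (left) and in YPD (right). The grey band marks differences under 1.5-fold. The intervals are widest in the YPD comparisons with WT, and COX1 of SEF1-VP16 minus sef1 lies above 0 in both media.

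The difference between strains was also not called to depend on the medium. The fit of 16 arrays gave 0 of 10 transcripts for SEF1-VP16 minus sef1 (8.62% of all tested probes were called), 0 of 10 for SEF1-VP16 minus WT (10.6%) and 0 of 10 for sef1 minus WT (0.886%). At an unadjusted p below 0.05 the count was 0 in each of the 3. The values ran from -0.29 in BI2 to 0.51 in OLI1, from -0.62 in BI2 to 0.42 in OLI1, and from -0.47 in VAR1 to -0.09 in OLI1. For this contrast the medium and the slide cannot be told apart.

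The replicates of a group differed more in these transcripts than in most others. The within-group SD, pooled over the 6 groups with 18 degrees of freedom, was between 0.31 in AI2 and 0.57 in VAR1 with a median of 0.40, whereas the median over all tested probes was 0.11. AI2, the steadiest, still exceeded 97.4% of all tested probes. The widest group was WT in YPD, where the COX2 level was -2.83, -3.34, -2.26 and -4.34 and the AI1 level was -3.21, -3.75, -2.71 and -4.95. Replicate 4 was the lowest and replicate 3 the highest in both.

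The transcripts moved together from array to array. In WT in YPD all 10 lay below their group mean on replicate 4, by 0.93 on average on the log2 scale (mean deviation -0.93), and all 10 lay above it on replicate 3 (mean deviation 0.73). Over the 24 arrays, after centring each group, the 36 pairs without OLI1 had Pearson correlations between 0.77 and 0.99 with a median of 0.91. The 9 pairs with OLI1 lay between 0.36 and 0.74. These points share the array and its scaling, and the correlations are given as a description. The levels also ran against array brightness within groups, with correlations between -0.38 in ATP8 and -0.89 in OLI1, where the middle of all tested probes was 0.01 and their range from the 5th to the 95th percentile was -0.59 to 0.55. The part of brightness in the differences above was not tested beyond the fit with brightness as a covariate.

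**Figure D4:**
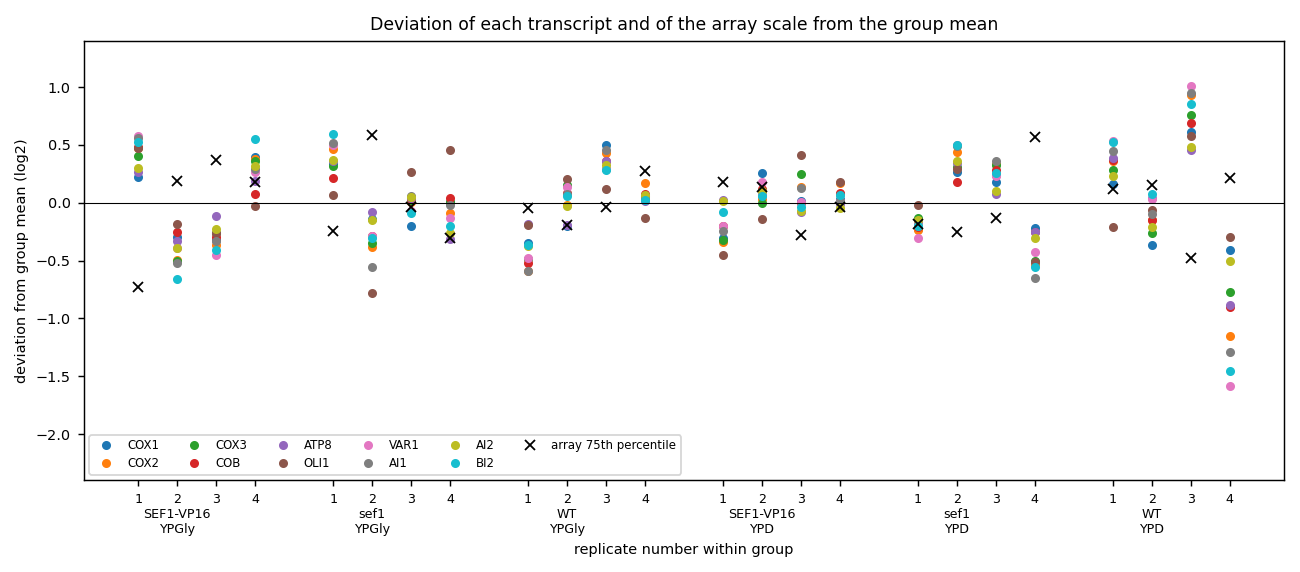
Deviation of each transcript from its group mean (vertical axis, log2) on the 24 arrays, ordered by group and replicate number, with crosses for the deviation of the log2 75th percentile of the array. The coloured points rise and fall together, furthest on replicates 3 and 4 of WT in YPD, with mean deviations of 0.73 and -0.93.

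Nuclear genes shared this pattern. Among 5612 tested probes outside the Q0 names, the 5 most like the mean of the 10 transcripts over the 24 arrays were SNA2 (r = 0.97), TIM11 (0.96), INH1 (0.96), PBI2 (0.96) and YLR030W (0.95). After centring within groups the same genes had correlations of 0.95, 0.84, 0.81, 0.96 and 0.87, and 72 of the 5612 probes exceeded 0.8, against a median of -0.06. TIM11 encodes a subunit of the ATP synthase, INH1 an inhibitor of its hydrolysis and PBI2 an inhibitor of a vacuolar protease. The array-to-array movement was thus also seen in some nuclear genes, and its cause was not tested.

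A difference between 2 probes of 1 array does not depend on the scaling, and it was formed for the 5 tested probes whose frame lies in COX1 or COB, each minus its host gene. This measure was chosen after the values had been seen. It shows unequal change of 2 probes and not which of them changed. AI1, AI2, AI5_ALPHA and AI5_BETA were all set against the same COX1 probe, so their differences are not independent of each other. In SEF1-VP16 minus sef1 the scaled level of COX1 differed by 0.42 in YPGly and 0.50 in YPD. Those of the frames in COX1 differed by -0.19 to 0.14 in YPGly and by -0.25 to 0.12 in YPD. For AI2 minus COX1 in YPGly the values were 0.57, 0.39, 0.59 and 0.40 in SEF1-VP16, against 1.07, 1.03, 1.28 and 0.77 in sef1 and 0.79, 0.99, 0.64 and 0.84 in WT. In YPD they were 1.16, 0.68, 0.75 and 0.76 in SEF1-VP16, against 1.54, 1.56, 1.38 and 1.38 in sef1 and 1.46, 1.55, 1.27 and 1.30 in WT. SEF1-VP16 thus lay below sef1 and below WT in both media without overlap.

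AI2 minus COX1 was lower in SEF1-VP16 than in sef1 by 0.55 ± 0.12 in YPGly, within 1 slide (difference -0.55), and in YPD the difference was -0.63 ± 0.12. Against WT it was -0.33 ± 0.09 in YPGly and -0.56 ± 0.13 in YPD. Each of these 4 had an exact two-sided permutation p of 0.0286, the smallest that 4 against 4 arrays allow. The adjusted p was 0.0756 over the 45 such tests made, so that none passed. At this smallest p no single difference, however large, could pass unless many of the 45 tests reached it together. Not passing is therefore no measure of the size of these differences. Between sef1 and WT the groups overlapped, with differences of 0.22 ± 0.13 in YPGly (exact p = 0.143) and 0.07 ± 0.08 in YPD (exact p = 0.429). The same measure was lower in YPGly than in YPD in each strain, with differences of -0.35 in SEF1-VP16, -0.43 in sef1 and -0.58 in WT, again without overlap and with the same exact p.

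AI1 minus COX1 averaged -1.22 ± 0.25 in SEF1-VP16, -0.63 ± 0.30 in sef1 and -0.65 ± 0.22 in WT in YPGly, and -1.33 ± 0.12, -0.78 ± 0.30 and -0.88 ± 0.59 in YPD (SD, n = 4). Only SEF1-VP16 and sef1 in YPD did not overlap (exact p = 0.0286, adjusted p = 0.0756). For SEF1-VP16 minus sef1, AI5_BETA minus COX1 differed by -0.61 in YPGly and by -0.38 in YPD, with no overlap in either medium. In the same contrast AI5_ALPHA minus COX1 differed by -0.28 in YPGly, where the groups overlapped, and by -0.75 in YPD. Against WT in YPGly AI5_ALPHA minus COX1 went the other way, with 0.16 ± 0.16 in SEF1-VP16, where the groups overlapped, and 0.43 ± 0.16 in sef1, where they did not. AI5_BETA minus COX1 in SEF1-VP16 minus WT differed by -0.76 in YPGly, without overlap, and by -0.26 in YPD, with overlap. BI2 minus COB, in SEF1-VP16 minus sef1, differed by -0.44 ± 0.23 in YPGly and -0.25 ± 0.13 in YPD, with overlap in both. Over all 45 tests 17 reached the smallest exact p, and the smallest adjusted p was 0.0756. Tests of frames in COX1 share its value on each array and are not separate results.

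**Figure D5:**
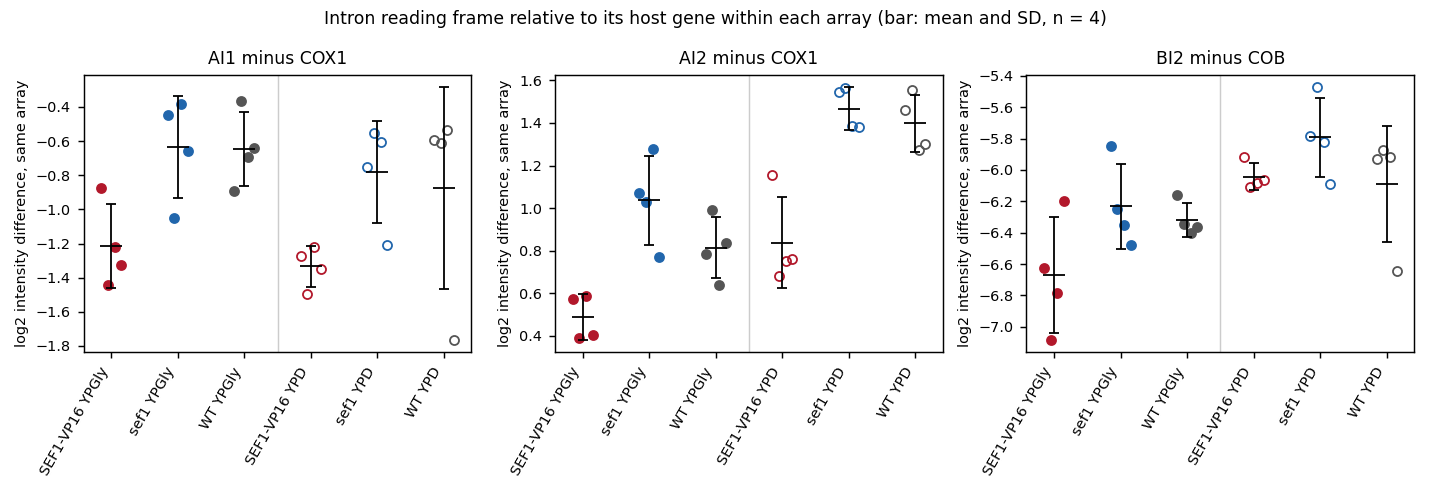
Log2 intensity of an intron reading frame minus that of its host gene on the same array (vertical axes, with a separate scale for each pair) in the 6 groups, with the mean and SD of 4 arrays. For AI2 minus COX1 the 4 SEF1-VP16 arrays lie below the sef1 and WT arrays of the same medium, whereas for BI2 minus COB the strains overlap.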

How the data were processed

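RNA of 24 cultures was hybridised to single-colour Agilent yeast arrays. The deposited intensity values were extracted per array with Agilent Feature Extraction 10.5.1.1, which subtracts background and detrends the signal. The authors also deposited a log2 table scaled to the 75th percentile, used here as an alternative, and 24 of its 24 columns lay nearest their own array. From the processed intensity, spots marked as outliers were left out, log2 values of the spots of a probe were averaged, and the array's 75th percentile over non-control probes was subtracted. Probes with a mean intensity of at least 200 in a group were tested (5641 of 6256) with limma 3.58.1 in R 4.3.3 on the 8 arrays compared, or 16 for medium dependence. Permutation tests and summaries used SciPy 1.17.1 in Python 3.11.15. Names came from the locus tags of a RefSeq gene table (5756 of 6256 probes matched), whose build differs from that of the array design, so no coordinates are given.

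The members and lists were chosen with earlier results of these data known. All 10 members were named, other Q0 probes where called (Q0017 and ATP6 were added after their values were seen), from each list the called genes with the largest changes (COX5A was added for its isoform), and the 5 tested probes of most alike pattern. Replicates were biological per the methods, and their number bounds the precision. The fit was tested on simulated data. 0 columns matched no sample. Alternatives were another background correction, scaling, filter, test, design, a slide or brightness term, a replicate block and leaving out each replicate.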

Additional observations from a re-analysis of the deposited data

Results flagged for a closer look

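Among 78 sets of 4 values examined (10 levels and 3 within-array differences in 6 groups), 3 held a value far from the other 3, where chance alone flags about 1 in 20. AI1 minus COX1 in WT in YPD was -1.76 on replicate 4. BI2 minus COB was -6.64 on the same array, which held the lowest level of its group for each of the 10 transcripts. AI2 minus COX1 in SEF1-VP16 in YPD was 1.16 on replicate 1, and the difference between that group and sef1 was wider without it. None of the 60 sets of levels held such a value.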

How the results depend on the processing

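Over the alternatives other than leaving out a replicate, the count of transcripts called higher in YPGly stayed between 7 and 9 in each strain. The calls that came and went were those of BI2, OLI1 and VAR1. In WT, BI2 was not called by the methods' unpaired test, with the slide as a term or with brightness as a covariate. In SEF1-VP16, OLI1 (0.26) and BI2 (0.49) were not called after quantile normalization. BI2 was not called there with no filter on intensity either. Leaving out a replicate gave 7 to 10 in SEF1-VP16, 8 to 9 in sef1 and 7 to 9 in WT. For SEF1-VP16 minus sef1 in YPD the count of 0 became 1 with no fold change minimum (COX1) and 2 with brightness as a covariate (COX1 and COX3). Without 1 replicate it ran from 0 to 1, as it did for SEF1-VP16 minus WT in YPD. The cause was not tested.

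Some differences that were not called changed sign. With the slide as a term these were OLI1 in SEF1-VP16 minus WT (0.30) and SEF1-VP16 minus sef1 (0.17) in YPD and COX1 in SEF1-VP16 minus WT in YPGly (0.31). With brightness as a covariate they were OLI1 in the first 2 of these (0.047 and 0.079), OLI1 between media in sef1 (-0.0057) and WT (-0.088), VAR1 between media in SEF1-VP16 (-0.051) and the medium dependence of OLI1 in sef1 minus WT (0.093, and 0.12 after quantile normalization). COX1 in SEF1-VP16 minus WT in YPGly was 0.019 with normexp, a model-based background correction. The medium dependence of SEF1-VP16 minus sef1 was 0.17 for BI2 with normexp and 0.023 for COX1 with scaling to the median. Without 1 replicate, sef1 minus WT in YPD ran from -0.25 to 0.090 for COX1, from -0.17 to 0.60 for BI2 and from -0.58 to 0.11 for COX2, with WT replicates 3 and 4 at the ends. OLI1 in sef1 minus WT in YPGly ran from -0.12 to 0.29 and COX1 in SEF1-VP16 minus WT in YPGly from -0.18 to 0.12. The medium dependence of sef1 minus WT ran from -0.28 to 0.17 for OLI1 and from -0.81 to 0.057 for VAR1, and that of SEF1-VP16 minus sef1 from -0.21 to 0.029 for COX1.

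Replicate numbers gave array columns and did not pair the samples: deviations of same-numbered arrays correlated between -0.43 and 0.53, and no comparison had every pair above 0.1. With a replicate block the counts were 9, 8 and 8 in SEF1-VP16, sef1 and WT between media and 0 elsewhere. Normexp was planned on mean signals and run on median signals, chosen after seeing the data, as were the brightness covariate and the within-array differences. All 10 probes were above background by the scanner's test, and 9 reached 200 units on all arrays, BI2 being the exception.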
